A study of Mus musculus with 2 samples.

Results

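The 10 cytotoxic granule genes described here, Gzma, Gzmb, Gzmk, Gzmc, Prf1, Nkg7, Fasl, Ctla2a, Stx11 and Srgn, were chosen by symbol from the 31053 genes counted in 2 single-cell RNA libraries of lung immune cells. One library came from tamoxifen-injected adult mice and the other from oil-injected adult mice, and both groups carried the genotype Gli1creERT/Hhipflo/flox. In such mice tamoxifen activates a Cre recombinase made in cells that express Gli1, and the floxed gene is Hhip, which encodes an inhibitor of hedgehog ligands. Shortly before death the mice received a CD45 antibody into the blood, and live CD45+ cells that this antibody had not reached were sorted from digested lung, so that the libraries hold immune cells of the tissue rather than of the vessels. The number, age, sex and strain of the mice behind each library are not given in the sources used here.

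Cytotoxic lymphocytes kill by releasing stored granules onto a target cell. Perforin opens the target's membrane, granzymes enter and cleave proteins inside it, and a SNARE complex that includes syntaxin 11 drives the fusion of granules with the membrane of the killer cell. In lung granzymes and perforin are made mainly by natural killer (NK) cells, CD8 T cells and some gamma-delta T cells, and a separate route to killing runs through Fas ligand on the cell surface.

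Because no cell annotation was used, barcodes were assigned to gates by the unique molecular identifiers (UMIs, each standing for 1 captured RNA molecule) of a few genes. An NK-gate barcode held a UMI of Ncr1 or Klre1 and none of Cd3d, Cd3e or Cd3g. Barcodes with a Cd3 UMI were divided in order into those with Cd8b1 (CD8 gate), those with Cd4 and no Foxp3, those with Cd4 and Foxp3, those with Trdc (a gamma-delta T cell receptor gene) and the rest, called other T. B cells (2 or more Cd79a UMIs) and alveolar macrophages (2 or more UMIs of Krt79 and Plet1) gave the background of genes that such cells are not known to use. The NK gate held 113 barcodes in the tamoxifen library and 207 in the oil library, and the CD8 gate held 553 with tamoxifen and 237 with oil. The CD4 Foxp3- gate held 630 with tamoxifen and 370 with oil, and the CD4 Foxp3+ gate 46 with tamoxifen and 67 with oil. The Trdc gate held 385 with tamoxifen and 273 with oil, and other T held 3513 with tamoxifen and 2072 with oil. Levels are given in CPM, the gene's UMIs scaled to all UMIs of the gate, and ratios are tamoxifen over oil on the log2 scale with exact 95% intervals for 2 Poisson counts. Each group is a single library, so nothing was tested. The intervals cover counting error only, and differences between the injections, between the mice and between the libraries cannot be told apart.

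The tamoxifen library kept 10138 of 12980 barcodes (78.1%) and the oil library 6794 of 10342 (65.7%) at 300 or more genes and under 10% mitochondrial UMIs, with medians of 6431 UMIs per kept barcode with tamoxifen and 6360.5 with oil. The libraries shared 41 barcode sequences. Hhip had 29 UMIs in 13 kept barcodes of the tamoxifen library and 40 UMIs in 24 of the oil library, and Gli1 had 9 UMIs in each, so that in these sorted cells the deletion could not be checked. In the B gate Gzma was found in 2 of 415 barcodes with tamoxifen (0.482%) and 4 of 233 with oil (1.72%), and in the alveolar macrophage gate in 0.519% of barcodes with tamoxifen and 0.630% with oil. Of the 45 Gzma UMIs in the oil B gate, 43 lay in 2 barcodes that also held a Cd3, Ncr1 or Klre1 UMI. Median depths in these background gates were 6878 UMIs with tamoxifen and 7810 with oil for B, and 10341 with tamoxifen and 12636 with oil for alveolar macrophages.

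Promoters are shown for 5 members on which the results turn, 4 whose levels were lower in the tamoxifen NK and CD8 gates and Stx11, which was higher in the T cell gates. Each runs from 250 bases before to 50 after the RefSeq start site on GRCm38.p6, read 5′ to 3′ on the gene's strand, and capitals mark matches on either strand to short motifs of factor families known from lymphocytes.
Gzma promoter, chr13:113100932-113101231, minus strand: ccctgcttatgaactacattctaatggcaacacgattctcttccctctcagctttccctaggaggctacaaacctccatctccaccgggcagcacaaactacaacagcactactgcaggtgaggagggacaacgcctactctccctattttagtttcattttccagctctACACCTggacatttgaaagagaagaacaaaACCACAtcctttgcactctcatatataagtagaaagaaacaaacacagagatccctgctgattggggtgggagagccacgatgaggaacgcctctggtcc
Gzmb promoter, chr14:56262285-56262584, minus strand: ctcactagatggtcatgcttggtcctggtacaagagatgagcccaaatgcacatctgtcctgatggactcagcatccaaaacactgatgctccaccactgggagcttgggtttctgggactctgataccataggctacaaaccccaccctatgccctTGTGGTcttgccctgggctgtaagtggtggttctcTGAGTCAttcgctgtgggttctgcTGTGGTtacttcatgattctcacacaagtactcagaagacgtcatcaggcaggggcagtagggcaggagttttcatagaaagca
Prf1 promoter, chr10:61297586-61297885, plus strand: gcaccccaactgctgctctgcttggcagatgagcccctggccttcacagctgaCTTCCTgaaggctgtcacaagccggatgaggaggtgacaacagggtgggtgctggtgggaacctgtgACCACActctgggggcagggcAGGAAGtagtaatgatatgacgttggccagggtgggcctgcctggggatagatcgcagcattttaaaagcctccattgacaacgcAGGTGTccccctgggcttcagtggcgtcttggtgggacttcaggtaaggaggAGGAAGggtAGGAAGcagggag
Nkg7 promoter, chr7:43436888-43437187, plus strand: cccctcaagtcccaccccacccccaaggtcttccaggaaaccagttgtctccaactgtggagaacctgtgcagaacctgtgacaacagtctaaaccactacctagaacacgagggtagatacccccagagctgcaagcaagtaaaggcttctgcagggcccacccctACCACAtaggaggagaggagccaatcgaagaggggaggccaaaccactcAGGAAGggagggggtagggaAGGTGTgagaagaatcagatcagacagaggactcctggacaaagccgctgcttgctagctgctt
Stx11 promoter, chr10:12964210-12964509, minus strand: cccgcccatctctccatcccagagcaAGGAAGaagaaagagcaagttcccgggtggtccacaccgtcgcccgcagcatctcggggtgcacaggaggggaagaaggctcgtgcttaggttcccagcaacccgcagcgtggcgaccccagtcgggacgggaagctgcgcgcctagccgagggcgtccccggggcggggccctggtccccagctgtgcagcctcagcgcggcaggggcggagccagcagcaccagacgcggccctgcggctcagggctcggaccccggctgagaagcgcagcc
The motifs searched were AGGTGT for T-box factors such as T-bet and Eomes, TGTGGT for RUNX factors, AGGAAG for ETS factors and TGANTCA for AP-1, and these occur in 13.7%, 16.8%, 35.4% and 7.81% of the 32851 promoters of the same table. TATAAA, the core of the TATA box, is in 13.6% of them and in none of the 5 shown. Gzma, Prf1 and Nkg7 each had 1 T-box match, beginning 80, 24 and 14 bases before the start, and 1 RUNX match, beginning 50, 130 and 83 bases before it. Gzmb had RUNX matches at 93 and 34 bases and an AP-1 match at 58 bases before its start, with no T-box match in this window. Prf1 also held 4 ETS matches. The Stx11 window held 1 ETS match and no T-box, RUNX or AP-1 match, and 71% of its bases were G or C. Of the members not shown, Gzmk had 2 T-box matches and Gzmc 1. Fasl and Ctla2a, also lower in the tamoxifen NK and CD8 gates, had no T-box match, and neither had Srgn. A match of 6 or 7 letters describes the sequence and is not evidence of binding, and the lack of one says nothing about a factor.

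In the NK gate the main granzymes and perforin were lower in the tamoxifen library. Gzma, Gzmb and Prf1 were each lower by more than 2-fold, Nkg7 and Fasl were lower by slightly less than 2-fold, Srgn hardly differed, Gzmc rested on too few barcodes to give a direction, and no member was 2-fold higher. Of the 9 members with at least 20 UMIs over both libraries, 3 were 2-fold or more lower and 0 higher, where 5.43% of all 8100 genes measured in this gate were lower and 3.26% higher by that rule. The members 2-fold or more lower numbered 2 without barcodes of myeloid or B genes and up to 5 under other settings. The median log2 ratio was -0.93 over the 9 members and -0.04 over all genes. The summed level of 10 NK markers, which include the 2 gate genes, was lower too, at 731 CPM with tamoxifen and 1403 CPM with oil. Lower levels in this gate were therefore not particular to the granule genes, and how far the differences are linked was not tested.

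Gzma, a tryptase-like granzyme, had 236 UMIs in the tamoxifen NK gate and 1071 in the oil NK gate, or 192 CPM with tamoxifen and 637 with oil. The tamoxifen level was 0.301 times that with oil, a log2 ratio of -1.73 (-1.94 to -1.53). Gzma was found in 7 of 113 tamoxifen barcodes (6.19%) and 42 of 207 oil barcodes (20.3%), above the B and macrophage background in both. Depth also differed, with medians of 9377 UMIs with tamoxifen and 5258 with oil, so shares were also computed at an equal depth of 1500 UMIs, as the average chance that a barcode keeps at least 1 UMI of the gene. At that depth the share was 5.80% of 109 tamoxifen barcodes (Clopper-Pearson interval 2.23 to 12.0) and 18.0% of 185 oil barcodes (12.7 to 24.3), and the intervals did not overlap. Among barcodes with Gzma, the mean was 33.7 UMIs with tamoxifen and 25.5 with oil. The lower level went with fewer Gzma barcodes, while the mean UMIs in each were not lower. These means were not scaled to depth, and the tamoxifen mean rests on 7 barcodes. A single barcode held 30.9% of the tamoxifen UMIs and 7.38% of the oil UMIs, and 2 tamoxifen and 10 oil barcodes sufficed for 50% of the total, so counting intervals understate how far such sums could vary. Without the barcode richest in Gzma in each library the log2 ratio was -2.15.

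Gzmb, the granzyme that cleaves after aspartate and triggers caspases, had 44 UMIs in 9 tamoxifen barcodes and 155 UMIs in 32 oil barcodes of the NK gate. Its level was 35.7 CPM with tamoxifen and 92.1 CPM with oil, a log2 ratio of -1.37 (-1.88 to -0.88). Gzmc, a granzyme of the same chromosome 14 cluster, had 117 UMIs with tamoxifen and 151 with oil, or 95.0 CPM with tamoxifen and 89.7 with oil. Its ratio of 0.08 rests on few barcodes, since 1 barcode held 59.0% of the Gzmc UMIs with tamoxifen and 1 held 78.1% with oil. It was -0.45 in female barcodes, 0.84 without barcodes of myeloid or B genes and 3.40 at a mitochondrial limit of 5%, with 78 UMIs with tamoxifen and 10 with oil. Gzmk, another tryptase-like granzyme, had 1 UMI with tamoxifen and 6 with oil and was not measurable here.

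Prf1, which encodes perforin, had 52 UMIs in the tamoxifen NK gate and 231 in the oil NK gate, or 42.2 CPM with tamoxifen and 137 with oil. Its log2 ratio was -1.70 (-2.16 to -1.26), and it was found in 25.7% of tamoxifen and 39.1% of oil barcodes. At equal depth these shares were 9.41% with tamoxifen and 22.5% with oil, against at most 1.10% in the B and macrophage gates. Prf1 was spread over more barcodes than Gzma, and its ratio stayed between -2.16 and -1.35 under the alternatives tried. Nkg7, a membrane protein of cytotoxic granules needed for their release, had 319 CPM with tamoxifen and 615 CPM with oil, a log2 ratio of -0.95 (-1.12 to -0.78). Nkg7 was detected in 54 of 113 tamoxifen barcodes (47.8%) and 141 of 207 oil barcodes (68.1%). At equal depth these became 35.4% with tamoxifen and 55.8% with oil, and the background share of Nkg7 at that depth was at least 1.17% and at most 2.03% over the B and macrophage gates of both libraries.

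Fasl, the ligand of the death receptor Fas, had 43.0 CPM in tamoxifen and 82.0 CPM in oil NK-gate barcodes, a log2 ratio of -0.93 (-1.42 to -0.46). Ctla2a, whose protein resembles a cathepsin propeptide and inhibits cathepsin L, had 259 CPM with tamoxifen and 384 with oil, a smaller difference of -0.57 (-0.77 to -0.37). Stx11 had only 15 UMIs with tamoxifen and 35 with oil, and its interval of -1.75 to 0.14 spans 0. Srgn, the proteoglycan core protein that packs granzymes into granules, had 1832 CPM with tamoxifen and 1835 CPM with oil. Its log2 interval of -0.08 to 0.08 lay close around 0, unlike those of Gzma, Gzmb and Prf1. Srgn is not particular to NK cells, however. Barcodes with 2 or more UMIs of the dendritic cell genes Xcr1 and Clec9a had Srgn at 2316 CPM with tamoxifen and 2488 with oil. The NK gate also held barcodes with myeloid genes, as given below, so its Srgn level is not that of NK cells alone.

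**Figure D1:**
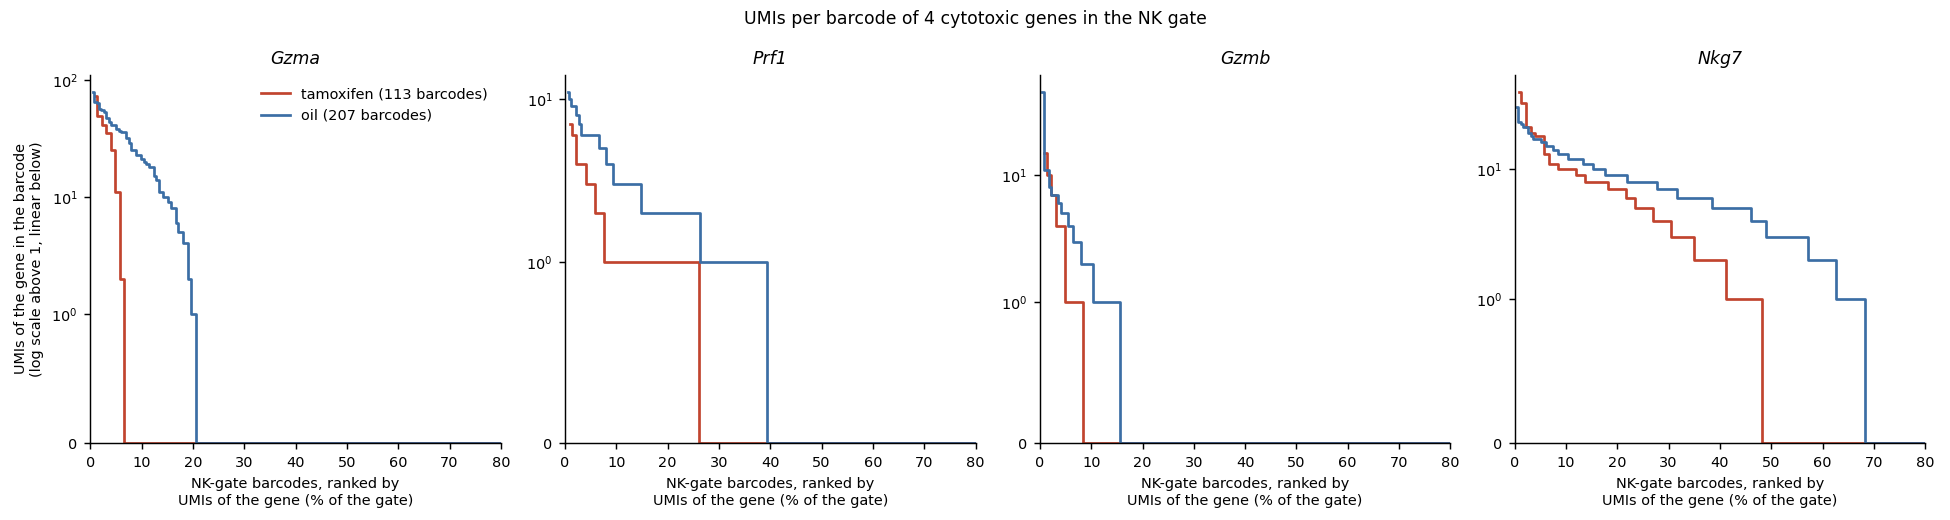
UMIs per barcode of Gzma, Prf1, Gzmb and Nkg7 in the NK gate, with barcodes ranked from most to fewest UMIs along the x axis as a percentage of the gate (tamoxifen 113 barcodes, red; oil 207 barcodes, blue) and UMIs on a log axis above 1. The tamoxifen curve of Gzma reaches 0 after 6.19% of barcodes and the oil curve after 20.3%, while the barcodes richest in Gzma hold 73 UMIs with tamoxifen and 79 with oil.

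The NK gate can hold both conventional NK cells, which circulate, and type 1 innate lymphoid cells (ILC1), which reside in tissue, and Gzma lay almost wholly in barcodes with a conventional NK gene. Barcodes with a UMI of Klra4, Klra8, Klra9, Itgam, S1pr5 or Eomes and none of Cxcr6, Itga1, Il7r or Cd200r1, the conventional NK set, numbered 7 of 113 with tamoxifen (6.19%) and 35 of 207 with oil (16.9%). Barcodes with the ILC1 set alone made up 56.6% with tamoxifen and 53.6% with oil, those with both sets 15.9% with tamoxifen and 21.3% with oil, and those with neither 21.2% with tamoxifen and 8.21% with oil. The conventional NK set alone held 159 of the 236 tamoxifen Gzma UMIs and 679 of the 1071 oil UMIs, and barcodes with both sets held 77 with tamoxifen and 364 with oil. Barcodes with the ILC1 set alone had 0 Gzma UMIs with tamoxifen and 28, in 2 barcodes, with oil.

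Within the conventional NK set Gzma differed much less, at 3033 CPM with tamoxifen and 3821 CPM with oil (log2 ratio -0.33, -0.59 to -0.08). When the 4 sets were weighted as in the oil library for both groups, the Gzma ratio was -0.51 in place of -1.73. Nkg7 behaved likewise, with -0.43 in place of -0.95. Prf1 kept most of its difference, at -1.35 under the oil mix, and was lower with tamoxifen inside the conventional NK set (8 UMIs with tamoxifen and 90 with oil, log2 ratio -1.73, -2.99 to -0.69) and inside the ILC1 set (44.1 CPM with tamoxifen and 96.9 with oil, -1.14, -1.82 to -0.49). Gzmb also kept its difference under the oil mix, at -1.33. In the conventional NK set it had 1 UMI with tamoxifen and 61 with oil (log2 ratio -4.17, -9.50 to -1.64), but with the ILC1 set it had 40.8 CPM with tamoxifen and 24.5 with oil, with an interval of -0.16 to 1.64. The tamoxifen values in the conventional NK set come from 7 barcodes only. The 4 sets divide the whole NK gate, without leaving out the barcodes of myeloid or B genes described below. Within the ILC1 set Nkg7 was in 59.4% of tamoxifen and 72.1% of oil barcodes. Neither the ILC1 set nor the values under the oil mix are thus known to describe lymphocytes alone.

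Granule genes were found together in the same barcodes. Of the barcodes with Gzma, 6 of 7 with tamoxifen and 38 of 42 with oil also held Prf1, and 3 of 7 with tamoxifen and 23 of 42 with oil held Gzmb. Of the barcodes without Gzma, 21.7% of 106 with tamoxifen and 26.1% of 165 with oil held Prf1. The barcodes without Gzma had a median of 10093 UMIs with tamoxifen and 5377 with oil, so their Prf1 shares were not taken at equal depth. They also included most of the NK-gate barcodes with myeloid or B genes described below, so the comparison was not made within NK cells alone.

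Markers of other cell types also differed between the NK gates, in both directions. The summed level of the 10 NK markers, which include the 2 gate genes, was 731 CPM with tamoxifen and 1403 CPM with oil, none of them at 0 in either library. A gene of the cDC1 dendritic cell pair Xcr1 and Clec9a was present in 31.9% of tamoxifen and 13.0% of oil barcodes, a gene of the 5 alveolar macrophage markers in 45.1% with tamoxifen and 27.1% with oil, and one of 3 neutrophil markers in 23.9% with tamoxifen and 2.42% with oil. These shares were not taken at equal depth, and the summed level of the alveolar macrophage markers was 571 CPM with tamoxifen and 513 CPM with oil. B markers were at 0 with tamoxifen and at 55.9 CPM with oil, and the plasma cell genes Jchain and Mzb1 at 16.2 CPM with tamoxifen and 1444 CPM with oil. Leaving out barcodes with 2 or more UMIs of a set of myeloid or B genes, a setting chosen after seeing the data, removed 60 of 113 tamoxifen barcodes and 54 of 207 oil barcodes. In those left, Gzma was in 6 of 53 tamoxifen barcodes (11.3%) and 38 of 153 oil barcodes (24.8%), and the log2 ratios were -0.97 for Gzma, -1.03 for Gzmb, -1.43 for Prf1 and -0.47 for Nkg7. All 4 were lower with tamoxifen there too, Gzmb and Prf1 by more than 2-fold.

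**Figure D2:**
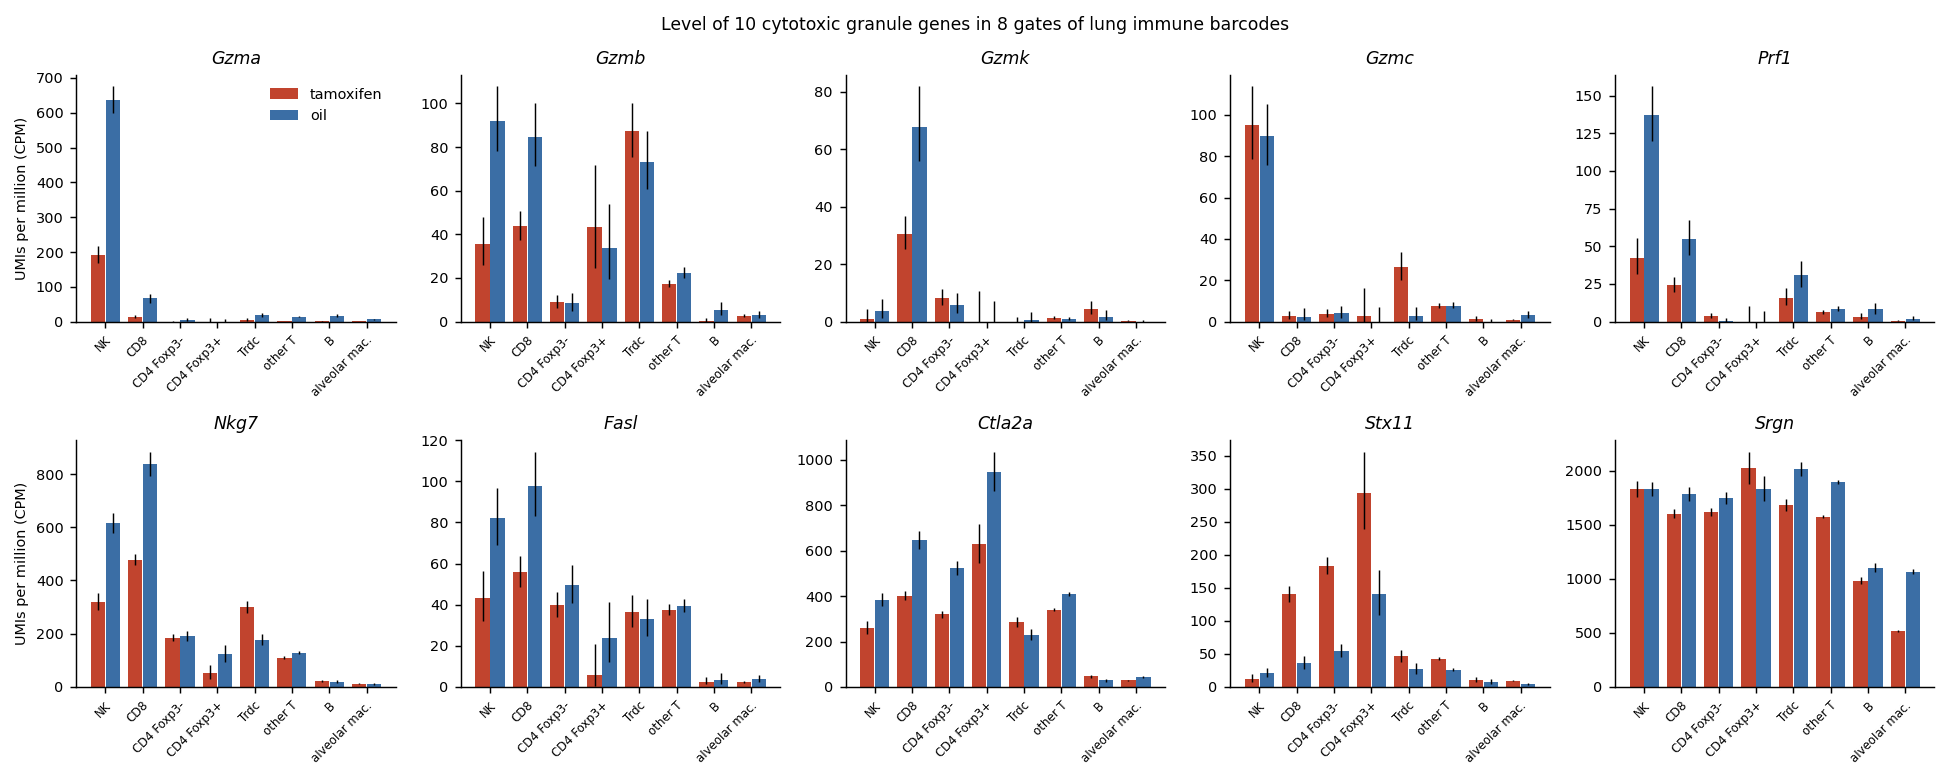
Levels of the 10 genes in CPM in 6 lymphocyte gates, B cells and alveolar macrophages, with the tamoxifen library (red) left of the oil library (blue) and error bars for exact 95% Poisson intervals; each panel has its own linear axis from 0. Gzma stands highest in the NK gate, at 192 CPM with tamoxifen and 637 CPM with oil, Gzmk in the CD8 gate, and Stx11 in the CD4 Foxp3+ gate, at 293 CPM with tamoxifen and 140 with oil.

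In the CD8 gate granzymes A, B and K and perforin were lower with tamoxifen, while Stx11 was higher. Of the 9 members measured, Gzma, Gzmk and Prf1 were 2-fold or more lower and Stx11 was 2-fold higher, against 1.89% of all 9665 genes lower and 8.4% higher. The median log2 ratio was -0.81 over the members and 0.08 over all genes, and 8 of the 9 members had a ratio below 0. The count of members 2-fold lower was 1 without barcodes of several gates and 0 in male barcodes. In male barcodes Gzmb (1.37, 76 UMIs with tamoxifen and 17 with oil) and Gzmk (0.57, 18 UMIs with tamoxifen and 7 with oil) were higher with tamoxifen.

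Gzma had 55 UMIs in 20 of 553 tamoxifen barcodes of the CD8 gate (3.62%) and 107 UMIs in 12 of 237 oil barcodes (5.06%). The levels were 14.0 CPM with tamoxifen and 66.7 with oil, a log2 ratio of -2.25 (-2.74 to -1.77), but the shares at equal depth, 1.75% with tamoxifen and 3.71% with oil, had overlapping intervals. Gzmk, a granzyme of memory-type CD8 T cells, had 30.6 CPM with tamoxifen and 67.9 CPM with oil (log2 ratio -1.15, -1.54 to -0.76) and was found in 8.68% of barcodes with tamoxifen and 15.6% with oil, against at most 0.964% in the B and macrophage gates. The Gzmk locus overlaps Esm1 on the other strand. Gzmb had 43.6 CPM with tamoxifen and 84.7 with oil (log2 ratio -0.96, -1.29 to -0.62), and Gzmc had 11 UMIs with tamoxifen and 4 with oil and was not compared.

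Prf1 had 95 UMIs in 66 tamoxifen barcodes (11.9%) and 88 UMIs in 57 oil barcodes (24.1%) of the CD8 gate. The levels were 24.2 CPM with tamoxifen and 54.8 with oil, a log2 ratio of -1.18 (-1.61 to -0.74). Nkg7 had 478 CPM with tamoxifen and 838 CPM with oil, a log2 ratio of -0.81 (-0.91 to -0.71), and was in 54.2% of barcodes with tamoxifen and 67.5% with oil. Fasl differed by the same log2 ratio of -0.81 (-1.11 to -0.50), Ctla2a by -0.69 (-0.81 to -0.58) and Srgn by -0.15 (-0.21 to -0.09).

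The CD8 gates of the libraries differed in the markers their barcodes held. Cd4 UMIs were found beside Cd8b1 in 135 tamoxifen and 14 oil barcodes. Alveolar macrophage markers summed to 983 CPM with tamoxifen and 45.5 with oil and neutrophil markers to 942 CPM with tamoxifen and 6.23 with oil. Neutrophil markers were also in more tamoxifen barcodes of the B gate (21.7% with tamoxifen and 4.29% with oil) and of the Trdc gate (17.4% with tamoxifen and 1.83% with oil). Alveolar macrophage markers were in 34.9% of tamoxifen and 20.2% of oil barcodes of the B gate, so these differences were not particular to the CD8 gate. The part of these markers in the results was not tested. With barcodes of several gates left out, the ratios were -1.66 for Gzma, -0.76 for Gzmk, -0.90 for Prf1 and -0.62 for Nkg7.

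**Figure D3:**
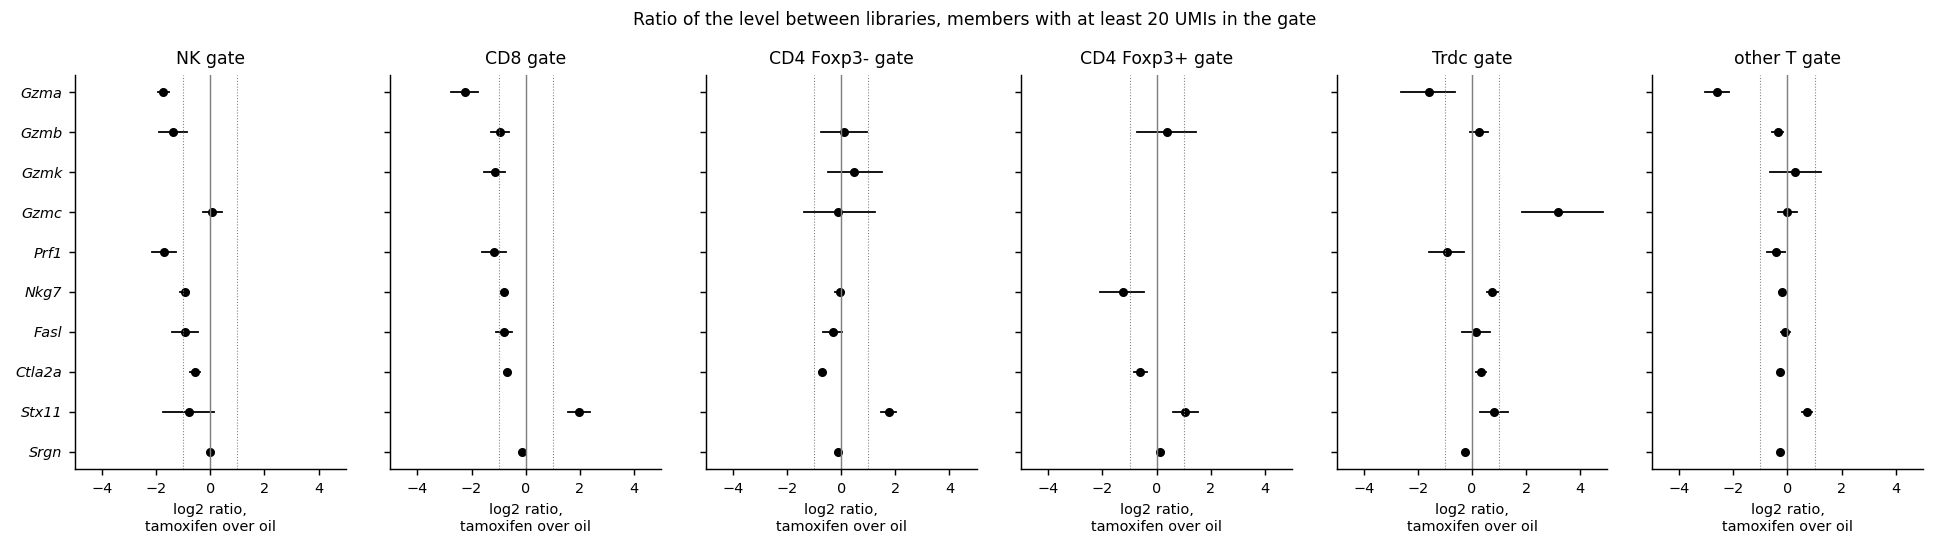
Log2 ratio of the level, tamoxifen over oil, for each member with at least 20 UMIs in each of 6 lymphocyte gates; points are ratios, lines exact 95% intervals for counting error, and dotted lines mark 2-fold. Gzma lies left of the lower dotted line in the NK (-1.73), CD8 (-2.25), Trdc (-1.60) and other T (-2.59) gates, and Stx11 lies right of 0 in every T cell gate, from 0.72 in other T to 1.96 in the CD8 gate.

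In the T cell gates Stx11 was higher with tamoxifen, the direction opposite to that of Gzma. In the CD8 gate it had 550 UMIs in 203 tamoxifen barcodes (36.7%) and 58 UMIs in 32 oil barcodes (13.5%). The levels were 140 CPM with tamoxifen and 36.1 with oil, a log2 ratio of 1.96 (1.57 to 2.37). At equal depth Stx11 was in 16.1% of tamoxifen barcodes (13.1 to 19.5) and 3.73% of oil barcodes (1.65 to 7.13), which do not overlap. In the CD4 Foxp3- gate it had 183 CPM with tamoxifen and 54.3 CPM with oil (log2 ratio 1.75, 1.48 to 2.04), and equal-depth shares of 19.4% with tamoxifen and 7.23% with oil. The highest levels of Stx11 in both libraries were in the CD4 Foxp3+ gate, which marks regulatory T cells, at 293 CPM with tamoxifen and 140 with oil (log2 ratio 1.06, 0.61 to 1.52). It was higher by less in the Trdc gate (46.2 CPM with tamoxifen and 26.6 with oil, 0.80) and in other T (42.8 CPM with tamoxifen and 26.0 with oil, 0.72). The equal-depth share in the B gate was 1.52% with tamoxifen and 1.29% with oil, and in the alveolar macrophage gate 1.20% with tamoxifen and 0.577% with oil. T cell shares in both libraries lay above these values. Outside the T cell gates the direction was less certain, although some intervals lay above 0 there too. In the alveolar macrophage gate Stx11 was at 9.62 CPM with tamoxifen and 4.64 CPM with oil (log2 ratio 1.05, 0.50 to 1.66), and in the B gate its interval of -0.35 to 1.27 spans 0. The macrophage gate shared 603 tamoxifen and 89 oil barcodes with the T and NK gates. Its Stx11 sum therefore does not show a direction outside T cells. Barcodes in none of the gates had Stx11 at 20.9 CPM with tamoxifen and 15.9 CPM with oil (log2 ratio 0.40, 0.20 to 0.60). The Gzma sum was also lower with tamoxifen in both background gates, with 3 UMIs with tamoxifen and 45 with oil in the B gate (-4.47, -6.80 to -2.83). In the alveolar macrophage gate Gzma was at 1.17 CPM with tamoxifen and 6.40 CPM with oil (-2.46). A single barcode held 38 of the 40 oil UMIs there. Among barcodes without a Cd3, Ncr1 or Klre1 UMI, Gzma had 6 UMIs with tamoxifen and 1 with oil in that gate. In the B gate such barcodes had 1 UMI with tamoxifen and 2 with oil. These counts are too few to give a direction outside barcodes with T or NK genes.

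These are levels of mixed gates and not of 1 kind of T cell, and the markers given above do not list every difference between the CD8 gates. Alveolar macrophage and neutrophil markers were also higher in the tamoxifen CD8 gate, as given above, and their part in the Stx11 result was not tested.

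The Trdc gate showed a different arrangement of granule genes. Of 9 members measured, Gzma was 2-fold lower and Gzmc 2-fold higher, against 1.76% of all 8993 genes lower and 4.58% higher. Gzma had 14 UMIs with tamoxifen and 31 with oil (log2 ratio -1.60, -2.62 to -0.65), from 3 barcodes with tamoxifen and 5 with oil. Gzmc had 61 UMIs with tamoxifen and 5 with oil, with 40 of the 61 in a single barcode, so its ratio of 3.16 describes very few cells. Nkg7 was higher with tamoxifen, at 300 CPM against 178 CPM with oil (0.76, 0.56 to 0.96), where it was lower in the NK and CD8 gates, a difference between gates that was not tested. Prf1 was lower (37 UMIs with tamoxifen and 52 with oil, -0.94), while Gzmb (87.2 CPM with tamoxifen and 73.2 with oil) and Fasl (36.3 CPM with tamoxifen and 33.1 with oil) had intervals spanning 0.

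The CD4 gates had few UMIs of Gzma, Gzmk and Prf1, and Gzmb was present in both. Of 8 members measured in the CD4 Foxp3- gate, only Stx11 passed 2-fold, where 5.12% of all 10308 genes were higher and 2.18% lower. Gzma had 1 UMI with tamoxifen and 12 with oil, Prf1 had 16 with tamoxifen and 1 with oil, and Gzmb had 39 with tamoxifen and 19 with oil (9.01 CPM with tamoxifen and 8.46 with oil). Nkg7 did not differ beyond counting error there (184 CPM with tamoxifen and 191 with oil, -0.22 to 0.12), and Ctla2a was lower with tamoxifen, at 319 CPM against 524 CPM with oil (-0.72, -0.83 to -0.60). In the CD4 Foxp3+ gate Gzma, Gzmk and Prf1 had 0 UMIs in both libraries, while Gzmb had 15 UMIs with tamoxifen and 17 with oil (43.6 CPM with tamoxifen and 33.6 with oil). Of 5 members measured there, Stx11 was higher and Nkg7 lower (18 UMIs with tamoxifen and 62 with oil, log2 ratio -1.23, -2.08 to -0.45) by 2-fold, against 6.95% of all 4861 genes higher and 3.99% lower.

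Other T, the largest gate, had Gzma at 2.33 CPM with tamoxifen and 14.0 CPM with oil, a log2 ratio of -2.59 (-3.04 to -2.16). The share of barcodes with Gzma was near the B and macrophage background in both libraries, 0.683% of 3513 with tamoxifen and 1.01% of 2072 with oil, with 57 UMIs in 24 barcodes with tamoxifen and 208 UMIs in 21 barcodes with oil. Of the 10 members Gzma alone passed 2-fold, where 3.19% of all 13324 genes were lower and 4.41% higher. Summed over T and NK gates, Gzma was at 9.91 CPM with tamoxifen and 63.3 with oil (-2.68), or -1.89 when the gates were weighted as in the oil library, Prf1 at 9.69 CPM with tamoxifen and 22.1 with oil (-1.19) and Stx11 at 71.4 CPM with tamoxifen and 31.8 with oil (1.17). These were the members past 2-fold in that sum, 2 lower and 1 higher, against 2.95% of 13963 genes lower and 4.12% higher.

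**Figure D4:**
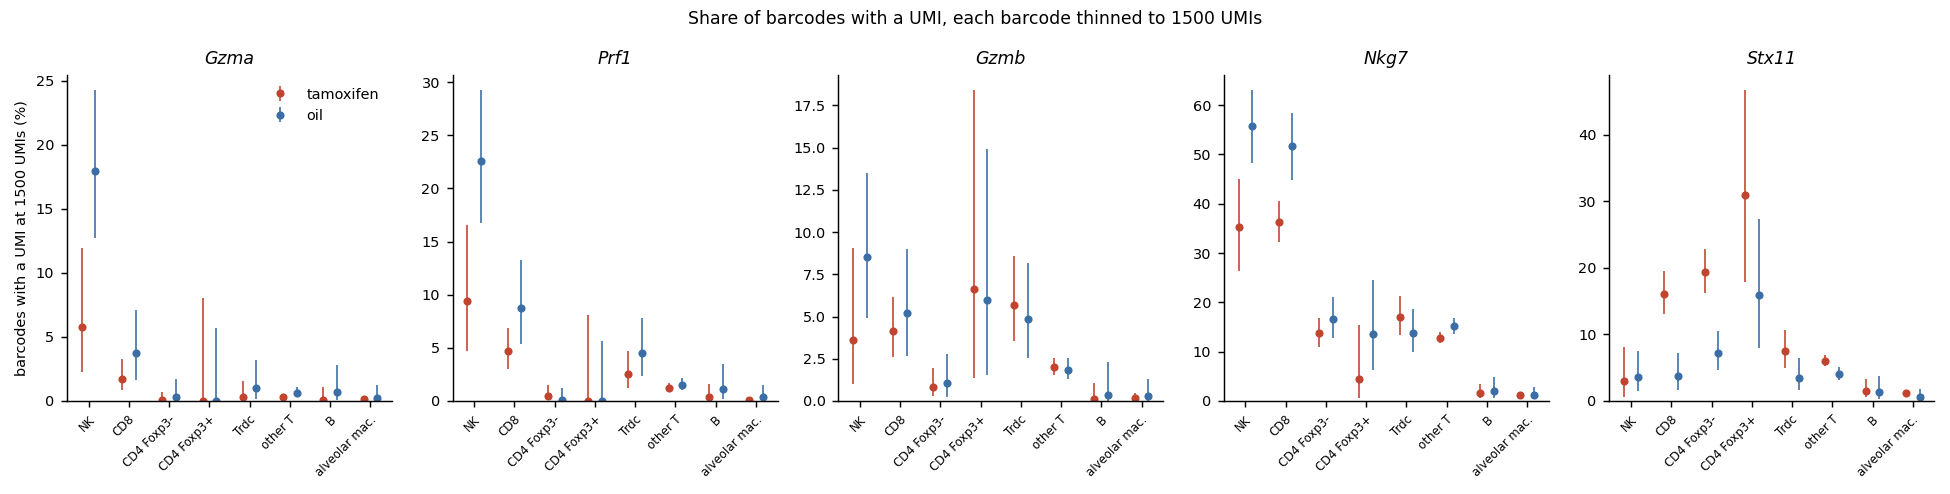
Share of barcodes with a UMI of Gzma, Prf1, Gzmb, Nkg7 and Stx11 at an equal depth of 1500 UMIs, by gate, with tamoxifen (red) left of oil (blue) and Clopper-Pearson 95% intervals. In the NK gate the Gzma share is 5.80% with tamoxifen and 18.0% with oil, and in the CD8 gate the Stx11 share is 16.1% with tamoxifen and 3.73% with oil, both with separate intervals.

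Ctla2a and Srgn are not confined to killer cells in these libraries. Barcodes with 2 or more UMIs of the endothelial genes Cldn5 and Cdh5 had Ctla2a at 2763 CPM with tamoxifen and 2482 CPM with oil, above every lymphocyte gate. Srgn reached 6081 CPM with tamoxifen and 9268 with oil in barcodes with 10 or more UMIs of the neutrophil genes S100a8, S100a9 and Retnlg. In the alveolar macrophage gate Srgn was at 516 CPM with tamoxifen and 1067 CPM with oil (log2 ratio -1.05), although that gate is a background only for the lymphocyte genes. Stx11 was present in neutrophil barcodes as well, at 103 CPM with tamoxifen and 91.8 with oil.

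Other genes of the cytotoxic pathway, taken from fixed lists, differed by 2-fold in some gates, and their counts are set beside the shares of all genes given above for each gate. In the NK gate 7 genes of granule processing and inhibition had enough UMIs. Of these Cst7, which encodes cystatin F, an inhibitor of granzyme-activating cathepsins, was lower with tamoxifen (33 UMIs with tamoxifen and 92 with oil, -1.03), and Serpinb6a was higher (1.13). Serpinb9, the inhibitor of granzyme B, had 213 CPM with tamoxifen and 320 with oil (-0.59). None of 15 genes of granule transport and fusion passed 2-fold in the NK gate, with a median log2 ratio of 0.09, and none of 8 activating and adhesion receptors did, with Klrk1 at 214 CPM with tamoxifen and 367 with oil (-0.78). Of 8 transcription factors, 2 were lower by 2-fold, both T-box factors of cytotoxic lymphocytes. Tbx21, which encodes T-bet, had 14 UMIs with tamoxifen and 50 with oil (-1.39), and Eomes 26 UMIs with tamoxifen and 91 with oil (21.1 CPM with tamoxifen and 54.1 with oil, -1.36), and Eomes is one of the genes that defined the conventional NK set.

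In the CD8 gate both measured relatives of the granzymes and of Ctla2a were lower with tamoxifen, Gzmm (granzyme M, 25 UMIs with tamoxifen and 29 with oil, 6.38 CPM with tamoxifen and 18.1 with oil) and Ctla2b (29 UMIs with tamoxifen and 30 with oil, -1.34). Of 7 genes of processing and inhibition, Ctsl was higher (106 UMIs with tamoxifen and 21 with oil, 1.05). None of 15 transport and fusion genes passed 2-fold. Those nearest to it were Lamp2, a lysosomal membrane protein (0.91), and Stxbp2, the binding partner of syntaxin 11 (0.80). Lta, the cytokine lymphotoxin alpha, was the 1 of 7 death receptor genes that was 2-fold higher (27.0 CPM with tamoxifen and 7.48 with oil, 1.86), and Crtam, an adhesion receptor, the 1 of 8 receptors (32.4 CPM with tamoxifen and 11.8 with oil, 1.45). Of 8 transcription factors, Eomes was lower (13.5 CPM with tamoxifen and 32.4 with oil, -1.26) and Zeb2 higher (139 CPM with tamoxifen and 67.9 with oil, 1.03). In the Trdc gate no gene of these lists passed 2-fold in either direction, and in other T 1 of them did, Gzmm (19 UMIs with tamoxifen and 4 with oil, 1.52).

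In the CD4 Foxp3+ gate 3 of 7 genes of granule processing and inhibition were 2-fold higher with tamoxifen and none was lower. Ctsc, which encodes the cathepsin that activates granzymes, had 189 CPM with tamoxifen and 63.3 CPM with oil (1.58, 0.95 to 2.24), Ctsl had 17 UMIs with tamoxifen and 6 with oil (2.06), and Serpinb9 had 13 UMIs with tamoxifen and 8 with oil (1.26, -0.13 to 2.73). Of 14 transport and fusion genes there, 2 were higher, Lamp1, a lysosomal membrane protein, at 183 CPM with tamoxifen and 63.3 CPM with oil (1.53), and Vamp2 with 14 UMIs with tamoxifen and 8 with oil (1.36). In the CD4 Foxp3- gate Crtam (108 UMIs with tamoxifen and 19 with oil, 1.56) and Serpinb6b (217 UMIs with tamoxifen and 56 with oil, 1.01) were higher with tamoxifen, and Ctla2b was lower, with 23 UMIs with tamoxifen and 25 with oil (-1.07).

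Over the 16 points given by 8 gates in 2 libraries, each member was compared with 10144 genes by Pearson's correlation of log2(CPM + 10), as a description of points that share libraries and depth. Nkg7 was closest to Fasl, Gm2682 and Ctsw, each at 0.96, so that 2 members were each other's nearest genes. Gzma was closest to Car2 (0.96), Ccdc184 (0.95) and Cd160 (0.93), and Prf1 to Klrc2 (0.93), Eomes (0.93) and Cd7 (0.92). Gzmc was closest to Klrb1c (0.95) and Klra8 (0.93), both genes of NK cell receptors, Gzmb to Txk (0.88) and Gzmk to Cd8a (0.91). Stx11 stood apart from the granzymes, with Sdf4 (0.97), Elob (0.96) and Batf (0.95) nearest to it. Ctla2a was nearest to Ssbp2 (0.95) and Srgn to Ppih (0.94).

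The members lie at separate loci, with coordinates here on GRCm38 with GENCODE annotation. Gzma (chr13:113093825-113100981) and Gzmk (chr13:113171608-113225908) are neighbours on the minus strand of chromosome 13, and Gzmb (chr14:56258838-56262260) and Gzmc (chr14:56231441-56234656) on that of chromosome 14. Prf1 (chr10:61297833-61304680), Srgn (chr10:62493833-62527451) and Stx11 (chr10:12938209-12964298) are on chromosome 10, Nkg7 (chr7:43437073-43438249) on 7, Fasl (chr1:161780689-161788495) on 1 and Ctla2a (chr13:60934155-60936625) on 13. The counts come from RNA 3′ ends, and in the last 500 bases of the longest transcript 0 of 441 stretches of 60 bases were shared with another gene for 9 members. Ctla2a shared 53 of them (12.0%), so its counts are less certain.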

How the data were processed

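Raw counts of UMIs per gene and barcode were deposited by the authors for 1 tamoxifen and 1 oil library. Per the labels' protocols the cells were run on the 10x Genomics 3' v3 chemistry, and per the submitters' processing notes Cell Ranger 5.0.1 and GRCm38 (mm10) were used. Filters on cells beyond Cell Ranger's own, and any doublet removal by the authors, are not given in the sources used here. Barcodes with at least 300 genes and under 10% of UMIs from mt- genes were kept. Gates by marker UMIs, summed counts, CPM, exact Poisson-ratio intervals and Clopper-Pearson intervals at 95% were computed in Python 3.11.15 with NumPy 2.4.6 and SciPy 1.17.1. Reads per UMI were not used, and the intervals treat UMIs as independent molecules. Shares at equal depth used barcodes of at least 1500 UMIs. A gene was called 2-fold different at 20 or more UMIs over both libraries. No doublets were removed in the values reported, and Scrublet in Scanpy 1.11.5 was an alternative. Interval and ratio code was tested on simulated data. Named genes beyond the members came from the pathway lists, from those with at least 20 UMIs over both libraries in the gate, mostly by the largest ratios. Some of them had fewer than 30 UMIs in each library. The others were the nearest by correlation among genes with at least 200 UMIs. A fold against a library at 0 was not computed. The members and gene lists were chosen with earlier results of these data known. Sequences came from RefSeq (GRCm38.p6), which held all 10 members. Splits of the T cell gates into subsets were computed and are not reported here.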

Additional observations from a re-analysis of the deposited data

Results flagged for a closer look

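Both libraries held female barcodes (6156 with tamoxifen and 3714 with oil, by Xist without Y-linked genes) and male barcodes (1679 with tamoxifen and 1413 with oil, the reverse), and in 7 cases the tamoxifen-over-oil ratio of a member went opposite ways in them, with at least 20 UMIs in each sex and each sex's own interval excluding 0. The sexes' ratios were compared by their counting intervals alone, and the difference was not tested over animals. How often all genes went opposite ways by this rule was not computed, so it is unknown whether 7 cases is unusual. Gzmb in the CD8 gate had a log2 ratio of -2.16 in female barcodes (64 UMIs with tamoxifen and 113 with oil) and 1.37 in male barcodes (76 UMIs with tamoxifen and 17 with oil, in 11 barcodes with tamoxifen and 1 with oil). In the Trdc gate the signs of Gzmb were the other way round, at 0.74 in female barcodes (115 UMIs with tamoxifen and 48 with oil) and -1.27 in male barcodes (27 UMIs with tamoxifen and 69 with oil). Fasl had -0.74 in female and 3.67 in male barcodes of the CD4 Foxp3- gate, the second from 31 UMIs with tamoxifen and 1 with oil, and -0.26 and 0.67 in other T. Ctla2a had -0.84 in female and 0.92 in male barcodes of the CD4 Foxp3- gate, and -0.48 and 0.93 in the Trdc gate. Srgn had -0.44 in female and 0.0514 in male barcodes of other T.

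Barcodes that failed the filters, 2842 with tamoxifen and 3548 with oil, also held granzyme UMIs, and there 3 members were 2-fold or more higher with tamoxifen. Gzmb had 89 UMIs with tamoxifen and 50 with oil (log2 ratio 1.07), Gzmk 28 with tamoxifen and 7 with oil (2.23), and Gzmc 66 with tamoxifen and 10 with oil (2.96). The share of all genes that differed by 2-fold in these barcodes was not computed, so it is unknown whether 3 members is unusual there.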

How the results depend on the processing

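Of 788 alternative values for 68 results, 630 stayed close to the reported value, 156 moved away from it and, among the 20 results that differed by 2-fold or more, 2 reversed. For ratios, close meant within the counting interval of the reported value. For the counts of members 2-fold lower, it meant within a fixed fold of the reported count. Over all ratios 60 values changed sign, 22 of them in male barcodes, such as Gzmb in the CD8 gate (1.37) and Fasl over T and NK gates (0.53). In the NK gate Gzma was -3.003 in female and -2.09 in male barcodes, -2.10 with barcodes weighted equally, -0.51 with the oil mix of NK sets, -0.97 without barcodes of myeloid or B genes and -2.15 without its richest barcode, the last pair of settings being chosen after seeing the data. With tamoxifen the female Gzma ratio in the NK gate rests on 49 UMIs in 1 barcode and the male ratio on 43 UMIs in 2 barcodes. Gzmb there was -1.90 at a 5% mitochondrial limit and -5.50 in male barcodes (1 UMI with tamoxifen and 62 with oil, -10.83 to -2.97). Nkg7 in the NK gate was -0.71 with 2 or more UMIs of Ncr1 and Klre1, -1.19 in female and -1.58 in male barcodes, -0.43 with the oil mix and -0.47 without myeloid or B genes. In the CD8 gate Nkg7 was -0.62 without barcodes of several gates, -0.94 in female and 0.22 in male barcodes. Stx11 there was 1.53 in male barcodes (15 UMIs with tamoxifen and 3 with oil) and 2.58 with equal weights, and in the CD4 Foxp3- gate 4.32 in male barcodes (97 UMIs with tamoxifen and 2 with oil). Members 2-fold lower in the NK gate numbered 2 without myeloid or B genes, 5 with Scrublet doublets removed, 5 in female barcodes and 5 without the richest barcode. In the CD8 gate they numbered 1 without barcodes of several gates and 0 in male barcodes. Reversed in male barcodes were Gzmk in the CD8 gate (0.57, 18 UMIs with tamoxifen and 7 with oil) and Gzma in other T (0.45, 2 UMIs with tamoxifen and 1 with oil). The cause was not tested. Scrublet marked 416 tamoxifen barcodes (4.10%) and, at a nominal rate because its threshold marked 0.0589%, 369 oil barcodes (5.43%). Median scaling moved ratios by at most 0.11, in the CD4 Foxp3+ gate. No paired analysis was possible because each group has 1 library. Depth limits Gzmk outside the CD8 gate, Stx11 in the NK gate and many values in male barcodes.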
